A study of Populus deltoides with 38 samples.

Results

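miR1444 is a microRNA family of poplars. Its members here were the small RNA entries whose name contains that family number, with reads summed over hairpins for each mature sequence, and the genes that the degradome tables pair with the family. The rule gave 6 of 1162 mature sequences and 13 of 39572 loci, 8 of them in 1 stretch of chromosome 1. MicroRNAs are loaded into an Argonaute protein and guide the cutting of transcripts that pair with them, usually opposite the middle of the small RNA. In Populus trichocarpa miR1444 is known for directing cuts in transcripts of polyphenol oxidases, copper enzymes that oxidise phenolic compounds and take part in wound browning and defence. It belongs with miR397, miR398 and miR408, families that in plants rise when copper is scarce and target transcripts of copper proteins.

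The samples were leaves of Populus deltoides raised from stem cuttings, 89 days old per the labels. Plants exposed to 50 µM CdCl2 (+Cd) were set against plants with none (−Cd), at 0, 100 or 1500 µM sulfate (low L, middle M and high H). Sulfate was supplied for 12 days before Cd and then together with it for 21 days. Each of the 6 groups had 3 mRNA and 3 small RNA libraries, and degradome libraries, which record the 5′ ends of cut transcripts, were made from 9 mixed RNAs, 1 pool with and 1 without Cd. Libraries carry their group and replicate number, as in +CdL1. The labels do not tie libraries to plants. The p-values therefore speak only to the spread among these libraries, part of which may be technical. Small RNA totals ran from 498205 to 2934278 listed reads per library, and the mRNA depth is unknown because FPKM values carry no totals. None of the 39512 poplar identifiers matched the reference table, so neither the enzyme class of the target genes nor the leaf identity of the samples could be checked, and genes are given by identifier.

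The mature sequences are shown first because they differ at their 5′ ends, where pairing with a target begins. Capitals mark the seed, bases 2 to 8 from the 5′ end.
miR1444a: tCCACATTcggtcaatgttcc
MIR1444c-p3: tATTCGGTcaacgttcgagtg
MIR1444a-p5: aATGTTGAccgaatatggatg
MIR1444c-p5: tGAATATTgatcgaatatgta
miR1444d: cGAACGTTgaccgaatatgaa
MIR1444d-p3: tATTCGATcaatattcaaggg
No pair of the 6 sequences shared a seed. miR1444a and MIR1444c-p3, both from the 3′ arm of their hairpins, matched at 14 of 17 overlapping bases once MIR1444c-p3 was moved 4 bases downstream. They made up 97.1% of the 577488 miR1444 reads, with 213662.5 for miR1444a and 346907.5 for MIR1444c-p3. The 5′ arm partners were far scarcer, at 5253 reads for MIR1444a-p5 and 11636 for MIR1444c-p5. miR1444d had 22 reads in 11 libraries and MIR1444d-p3 had 7 reads in 6 libraries, too few to test.

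The hairpins show where these sequences come from, with the mature arms in capitals.
MIR1444a hairpin: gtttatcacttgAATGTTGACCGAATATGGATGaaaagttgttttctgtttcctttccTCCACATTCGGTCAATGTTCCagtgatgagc
MIR1444c hairpin: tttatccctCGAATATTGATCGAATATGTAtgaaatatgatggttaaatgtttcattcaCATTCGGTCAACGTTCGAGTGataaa
MIR1444e hairpin: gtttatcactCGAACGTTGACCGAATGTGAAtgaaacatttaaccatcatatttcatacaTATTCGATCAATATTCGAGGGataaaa
No source used here names the build behind the positions. The MIR1444a hairpin lies at chr8:9457700-9457788 on the minus strand. The MIR1444c hairpin lies at chr10:12167995-12168079 on the plus strand. The hairpin named MIR1444d or MIR1444e, which holds miR1444d and MIR1444d-p3, lies at chr10:12167994-12168080 on the minus strand, and 85 of 85 bases of the MIR1444c hairpin are its reverse complement. Counted from the 5′ end of the small RNA, with the hairpin base first, MIR1444c-p3 and MIR1444c-p5 each carried C1T, miR1444d and MIR1444d-p3 each carried G17A, and miR1444a and MIR1444a-p5 had no substitution.

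The first comparison asked how miR1444 reads changed with Cd and with sulfate. Summed over all 6 sequences, miR1444 was higher with Cd at every sulfate supply, and no change with sulfate was detected. At low sulfate the sum was 17889, 36203 and 42367 CPM (reads scaled to the size of each library) with Cd, against 13285, 12161 and 7935 CPM without Cd. At middle sulfate it was 27076, 27969 and 33627 CPM with Cd, against 8340, 11366 and 10419 CPM without Cd. At high sulfate it was 32807, 26286 and 25531 CPM with Cd, against 11006, 15913 and 12693 CPM without Cd. Every library with Cd exceeded every library without Cd. Library +CdL1 was the lowest of those with Cd.

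The sum rose with Cd by 1.39 ± 0.15 on the log2 scale averaged over sulfate (SE; edgeR quasi-likelihood test with Benjamini-Hochberg adjustment, adjusted p = 3.857e-07). In that comparison 22.1% of the 68 families tested were called higher. The changes were 1.53, 1.56 and 1.10 for low, middle and high sulfate (SE 0.27 each; edgeR, adjusted p = 0.0001586, 0.0001925 and 0.008978), where 17.6%, 11.8% and 8.82% of families were called higher. The ratio of group means, +Cd over −Cd, was 2.89, 2.94 and 2.14 for low, middle and high sulfate. Under quantile normalization the averaged change was 0.78 (limma, adjusted p = 0.0004304) and that at low sulfate 0.72 (adjusted p = 0.04903), while the call at high sulfate was lost (0.37; adjusted p = 0.4491). The high sulfate call was also lost without any 1 of 5 libraries, namely +CdM2, −CdM3, +CdH2, −CdH1 and −CdH3 (0.86 to 1.06; edgeR, adjusted p = 0.05154 to 0.1237).

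No change of the sum with sulfate supply passed the test. The difference was 0.13 ± 0.19 between low and middle sulfate and 0.16 ± 0.19 between high and middle sulfate (SE; edgeR, adjusted p = 0.6114 and 0.9951). The test of whether the Cd change differed between sulfate supplies gave an adjusted p of 0.6901 (edgeR). The groups with Cd, in the order of their means, were low (32153 ± 12732 CPM), middle (29557 ± 3553) and high sulfate (28208 ± 4001), followed by the groups without Cd at high (13204 ± 2493), low (11127 ± 2821) and middle sulfate (10042 ± 1548; SD, n = 3 each). The step between the Cd levels was the one place in this order where neighbouring groups did not overlap. As a share of all listed small RNA reads, miR1444 made up 1.74 to 4.25% with Cd and 0.747 to 1.64% without Cd.

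**Figure D1:**
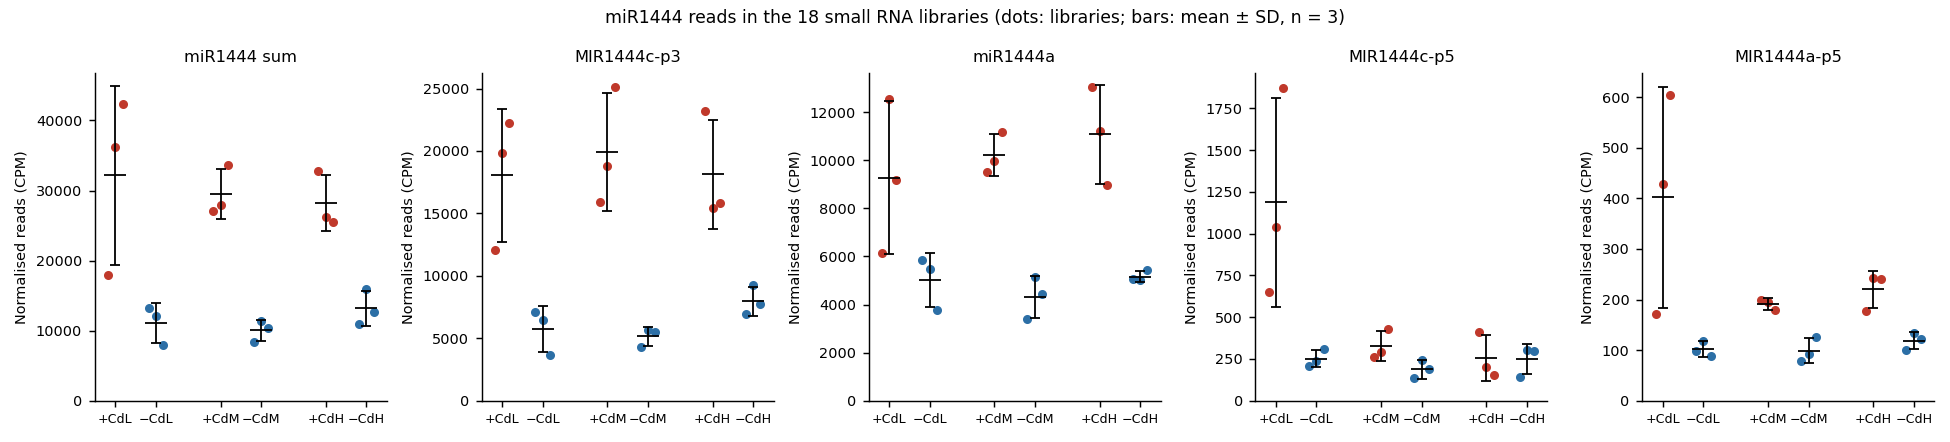
Normalised reads (CPM, linear axis from 0) of the miR1444 sum and of its 4 tested sequences in each of the 18 small RNA libraries, by group, with Cd in red and without Cd in blue; bars give mean ± SD (n = 3). The sum ranged from 17889 to 42367 CPM with Cd and from 7935 to 15913 CPM without Cd, and the 5′ arm sequence MIR1444c-p5 was highest with Cd at low sulfate.

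The single sequences were then tested one by one. All 4 tested sequences were called higher with Cd when averaged over sulfate, a comparison in which 13.3% of 368 sequences were called higher. MIR1444c-p3 rose by 1.60 ± 0.16 and miR1444a by 1.07 ± 0.14 (log2 ± SE; edgeR, adjusted p = 2.74e-07 and 1.39e-05). The 5′ arm sequences MIR1444a-p5 and MIR1444c-p5 rose by 1.27 ± 0.19 and 1.02 ± 0.23 (edgeR, adjusted p = 5.58e-05 and 0.003171). MIR1444c-p3 and miR1444a passed at each sulfate supply, whereas both 5′ arm sequences passed at low sulfate alone. The shares of sequences called higher were 11.4%, 6.52% and 4.08% for low, middle and high sulfate.

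MIR1444c-p3, the sequence with the most reads, stood at 12069, 19822 and 22246 CPM with Cd at low sulfate, against 7093, 6445 and 3680 CPM without Cd. Under middle sulfate it stood at 15882, 18759 and 25153 CPM with Cd, against 4300, 5696 and 5515 CPM without Cd. At high sulfate the values were 23186, 15408 and 15834 CPM with Cd, against 6920, 9241 and 7744 CPM without Cd. The groups did not overlap at any supply, and the log2 changes were 1.65, 1.95 and 1.19 at low, middle and high sulfate (SE 0.28 each; edgeR, adjusted p = 0.0001918, 7.432e-05 and 0.014). Quantile normalization removed the high sulfate call (0.84; limma, adjusted p = 0.07373), as did leaving out −CdH1 or −CdH3 (1.10 and 1.16; edgeR, adjusted p = 0.0528 and 0.07327).

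miR1444a stood at 6144, 12530 and 9169 CPM with Cd at low sulfate, against 5836, 5483 and 3763 CPM without Cd. At middle sulfate it stood at 9522, 9955 and 11193 CPM with Cd, against 3416, 5146 and 4428 CPM without Cd. Under high sulfate it stood at 13070, 11205 and 8961 CPM with Cd, against 5074, 5003 and 5421 CPM without Cd. Here too the groups did not overlap, although +CdL1 lay close to the highest library without Cd at low sulfate. The log2 changes were 0.88, 1.24 and 1.10 at low, middle and high sulfate (SE 0.25 each; edgeR, adjusted p = 0.015, 0.003402 and 0.01328). The low sulfate call was lost without +CdL2, −CdL2 or −CdL3 and without the filter on low counts. The calls at middle and high sulfate were lost under quantile normalization, and that at high sulfate also without −CdH2.

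The balance between these sequences moved with Cd, a measure that needs no scaling between libraries. The ratio of MIR1444c-p3 to miR1444a reads was 1.96, 1.58 and 2.43 with Cd at low sulfate, against 1.22, 1.18 and 0.978 without Cd. Under middle sulfate it was 1.67, 1.88 and 2.25 with Cd, against 1.26, 1.11 and 1.25 without Cd. At high sulfate it was 1.77, 1.38 and 1.77 with Cd, against 1.36, 1.85 and 1.43 without Cd. The groups were apart at low and middle sulfate and overlapped at high sulfate. Averaged over sulfate, the log2 ratio was higher by 0.52 with Cd (two-sided exact permutation test within sulfate supplies, p = 0.003 over 8000 arrangements, where the smallest possible p is 0.00025). This ratio was chosen after its values were seen, and the difference was 0.81, 0.68 and 0.09 at low, middle and high sulfate. Whether it differed between supplies was not tested.

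MIR1444c-p5, from the 5′ arm of the MIR1444c hairpin, was the sequence that varied most with sulfate. It stood at 651, 1037 and 1872 CPM with Cd at low sulfate, against 207, 239 and 310 CPM without Cd. At middle sulfate it stood at 260.0, 289.9 and 427 CPM with Cd, against 133, 247 and 189 CPM without Cd. Under high sulfate it stood at 409.8, 200.1 and 151 CPM with Cd, against 144, 302 and 299.5 CPM without Cd. The groups were apart at low and middle sulfate and overlapped at high sulfate.

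The log2 changes of MIR1444c-p5 with Cd were 2.23 ± 0.42, 0.78 ± 0.40 and 0.04 ± 0.40 at low, middle and high sulfate (SE; edgeR, adjusted p = 0.000483, 0.2737 and 0.9871). Averaged over Cd it was higher at low than at middle sulfate by 1.14 ± 0.29 (edgeR, adjusted p = 0.006025), where 14.1% of sequences were called higher. The test of a difference between supplies in the Cd change gave an adjusted p of 0.05635 (edgeR). That p ranged from 0.0007391 to 0.1951 over 23 alternatives, 6 of which passed the threshold, among them leaving out +CdL1, +CdH1 or −CdH1. MIR1444a-p5 had 171, 429 and 605 CPM with Cd at low sulfate, against 98.5, 119 and 87.9 CPM without Cd, a change of 1.98 ± 0.34 (edgeR, adjusted p = 0.0001918). At middle and high sulfate its changes of 0.95 ± 0.33 and 0.89 ± 0.33 missed the threshold (edgeR, adjusted p = 0.07624 and 0.1091). Both passed without +CdL1 (0.96 and 1.00; edgeR, adjusted p = 0.01629 and 0.01299) and with DESeq2, and that at high sulfate also without +CdL3.

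The degradome tables list reads of cut ends by transcript and site. Each pool had no replicate, so no test was made, and intervals are exact 95% Poisson intervals that cover counting error only. The site of miR1444a in Potri.001G388900 had 6445 reads in the +Cd pool (6289 to 6604) and 6061 in the −Cd pool (5909 to 6216). It carried more reads than any other listed site in either pool. The next, a vvi-miR482 site in Potri.010G231200, had 1255 reads in the +Cd pool and 1502 in the −Cd pool. The cut fell at transcript position 1222, opposite base 10 of miR1444a, and was given category 0, the strongest class of such schemes, in both pools.

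A second kind of site lay in the other 7 chromosome 1 genes and belonged to MIR1444c-p3. Potri.001G388800 had 91 reads there in the +Cd pool (73.3 to 111.7) and 134 in the −Cd pool (112.3 to 158.7). The same reads were listed for its neighbours: 6 of the 7 genes had 88 to 91 reads in the +Cd pool and 132 to 134 in the −Cd pool, all in category 0. The authors' divided reads of the 7 genes added up to 91 and 134, so these counts are 1 set of reads that could not be placed on 1 gene. The exception, Potri.001G388200, had 1 read in each pool at its MIR1444c-p3 site. At the miR1444a site of these genes, 4 bases further along the transcript, there was 1 read in the +Cd pool and 3 or 4 in the −Cd pool. That distance equals the shift between the sequences shown above, and all of these cuts fell opposite base 10.

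The 5 genes on other chromosomes had few reads. Potri.011G108200 and Potri.011G108300 shared 10 reads in the +Cd pool and 3 in the −Cd pool at a MIR1444c-p3 site. At their miR1444a site they shared 1 read in the +Cd pool and 3 in the −Cd pool. Potri.011G047300 had the best alignment score of the set, 0.5 where lower is better, with 2 reads in the +Cd pool and 1 in the −Cd pool. Potri.008G123300 was paired with MIR1444d-p3 through 2 reads in the +Cd pool and 0 in the −Cd pool. Potri.015G087200 was paired with MIR1444c-p5 through 0 reads in the +Cd pool and 1 in the −Cd pool, opposite base 11.

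**Figure D2:**
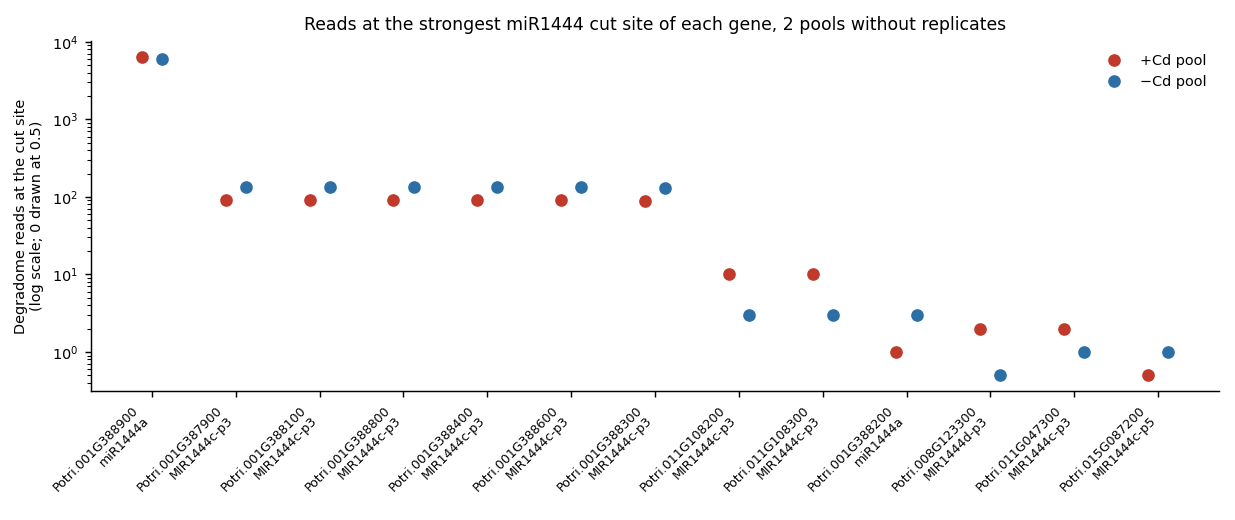
Degradome reads (log axis, 0 drawn at 0.5) at the miR1444 site with most reads in each of the 13 genes, with the small RNA named under the gene, +Cd pool in red and −Cd pool in blue, 1 pool each. Potri.001G388900 stands at 6445 and 6061 reads, 6 chromosome 1 genes that list the same reads at 88 to 91 and 132 to 134, and the other genes at 10 or fewer.

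The second comparison asked how the target transcripts changed. The chromosome 1 targets lie in 272.6 kb (chr1:40412587-40685189), which holds 11 loci. The 3 that no miR1444 site was listed for, Potri.001G388000, Potri.001G388500 and Potri.001G388700, are 637 to 663 bases long and were listed at 0 in every library. The 8 genes with a listed site are 1753 to 2553 bases long. No target locus joined more than 1 identifier. With near-identical neighbours, reads can be split between copies in a way the files do not show, so values of single genes in this stretch are uncertain. In bulk leaf samples fewer cells of a type and less RNA per cell cannot be told apart.

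Most of the chromosome 1 targets were lower with Cd. All 3 libraries with Cd lay below all 3 without Cd in 7 of 8 genes under low, 8 of 8 under middle and 6 of 8 under high sulfate. Among the 31970 loci listed above 0 in any library, 9.11%, 17.5% and 14.5% did so. Of the 8 genes, 4 averaged below 1 FPKM, and near-identical copies may share reads, so they are not 8 separate observations. Of the 13 genes, 7 had a mean of at least 1 FPKM and were tested, and Potri.001G388200 passed this limit only through its libraries without Cd. Averaged over sulfate, Potri.001G387900, Potri.001G388800 and Potri.001G388900 were called lower and Potri.015G087200 higher with Cd (limma), where 16.2% of the 23166 loci tested were called lower and 11.9% higher.

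Potri.001G388900, the most abundant target, had 88.9, 56.2 and 96.2 FPKM with Cd at low sulfate, against 230.0, 263 and 256 FPKM without Cd. Under middle sulfate it had 273, 273 and 215 FPKM with Cd, against 827, 614 and 611 FPKM without Cd. At high sulfate it had 359.8, 365 and 331 FPKM with Cd, against 335, 511 and 372 FPKM without Cd. The groups were apart at low and middle sulfate and overlapped at high sulfate.

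On the log2(FPKM + 1) scale, which understates the change of low genes, Potri.001G388900 fell by 1.66 ± 0.20 with Cd at low and by 1.42 ± 0.20 at middle sulfate (SE; limma, adjusted p = 0.002096 and 0.0001556). At high sulfate the difference was −0.18 ± 0.20 (limma, adjusted p = 0.5786). The Cd change differed between sulfate supplies (limma interaction, adjusted p = 0.01303), a test passed by 4.26% of loci. Averaged over Cd, the gene was lower at low than at middle sulfate by 1.56 ± 0.14 (log2 change −1.56; limma, adjusted p = 7.325e-06), where 14.6% of loci were called lower. Between high and middle sulfate the difference was −0.14 ± 0.14 (limma, adjusted p = 0.7277). In the order of the group means, −CdM led (684 FPKM), followed by −CdH (406), +CdH (352), +CdM (254), −CdL (249.8) and +CdL (80.4). Neighbours overlapped between −CdH and +CdH and between +CdM and −CdL.

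Potri.001G388800 had 9.95, 2.17 and 3.86 FPKM with Cd at low sulfate, against 45.4, 38.6 and 36.7 FPKM without Cd. At middle sulfate it had 9.31, 13.6 and 10.8 FPKM with Cd, against 63.7, 49.0 and 46.6 FPKM without Cd. Under high sulfate it had 12.7, 18.7 and 14.2 FPKM with Cd, against 61.6, 47.9 and 27.5 FPKM without Cd. The groups were apart at each supply, and library −CdH3 was the lowest of those without Cd. The log2 changes with Cd were −2.89, −2.15 and −1.47 at low, middle and high sulfate (SE 0.36 each; limma, adjusted p = 0.002096, 0.0006508 and 0.01385). The shares of loci called lower were 0.397%, 13.1% and 8.59% for low, middle and high sulfate. The high sulfate call was lost without +CdH1 (−1.36; limma, adjusted p = 0.05095) and without −CdH1 (−1.22; adjusted p = 0.06839).

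Potri.001G387900 had 6.26, 0.94 and 1.85 FPKM with Cd at low sulfate, against 26.1, 21.5 and 21.5 FPKM without Cd. Under middle sulfate it had 6.73, 8.14 and 5.80 FPKM with Cd, against 42.6, 28.1 and 31.3 FPKM without Cd. At high sulfate it had 8.26, 12.0 and 6.88 FPKM with Cd, against 38.3, 30.2 and 19.8 FPKM without Cd. The groups were again apart at each supply. The log2 changes with Cd were −2.81, −2.14 and −1.58 at low, middle and high sulfate (SE 0.37 each; limma, adjusted p = 0.002782, 0.0008395 and 0.01106), and the last call was lost without −CdH1 (−1.38; limma, adjusted p = 0.05424). This gene and Potri.001G388800 ran in parallel, with a correlation of 0.995 over the 18 libraries and a ratio of 1.38 to 2.32 between them, so they may share reads. In both genes +CdL1 was the highest library with Cd at low sulfate. The small RNA library of that name had the lowest miR1444 sum of those with Cd. In Potri.001G388900 the highest was instead +CdL3 (96.2 FPKM, against 88.9 FPKM in +CdL1). The small RNA library named +CdL3 had the highest miR1444 sum (42367 CPM). The labels do not say that mRNA and small RNA libraries of the same name came from the same RNA, and a link was not tested.

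Both genes were also lower at low than at middle sulfate averaged over Cd, with differences of −0.86 ± 0.26 for Potri.001G387900 and −0.76 ± 0.25 for Potri.001G388800 (log2 ± SE; limma, adjusted p = 0.02417 and 0.03688). The call for Potri.001G388800 was also lost under quantile normalization (−0.69; limma, adjusted p = 0.05231). The calls were lost without any 1 of 3 libraries for Potri.001G387900 and any 1 of 9 for Potri.001G388800 (limma, highest adjusted p = 0.05622 and 0.07831). For Potri.001G387900 the 3 were +CdL3, +CdM2 and −CdM1. For Potri.001G388800 the 9 were +CdL2, +CdL3, −CdL2, −CdL3, +CdM2, +CdM3, −CdM1, −CdM2 and −CdM3. The test of a Cd change that differed between supplies gave adjusted p values of 0.3309 and 0.2241 for these genes (limma).

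Potri.001G388200 was scarce, at 0.05 to 0.53 FPKM with Cd and 1.14 to 2.73 FPKM without Cd, and its groups were apart at each supply. Because it passed the limit for testing only through the libraries without Cd, its log2 changes with Cd of −1.12, −1.25 and −0.98 at low, middle and high sulfate are given as a description, with no test. With a pseudocount of 0.1 in place of 1 its change averaged over sulfate was −2.22, against −1.12. The other 4 paired genes of the stretch were below the limit for testing. Potri.001G388100 averaged 0.241 FPKM with Cd and 0.964 FPKM without Cd, and Potri.001G388300 0.196 FPKM with Cd and 0.848 FPKM without Cd. Potri.001G388400 averaged 0.144 FPKM with Cd and 0.69 FPKM without Cd, and Potri.001G388600 0.248 FPKM with Cd and 0.889 FPKM without Cd (9 libraries each).

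**Figure D3:**
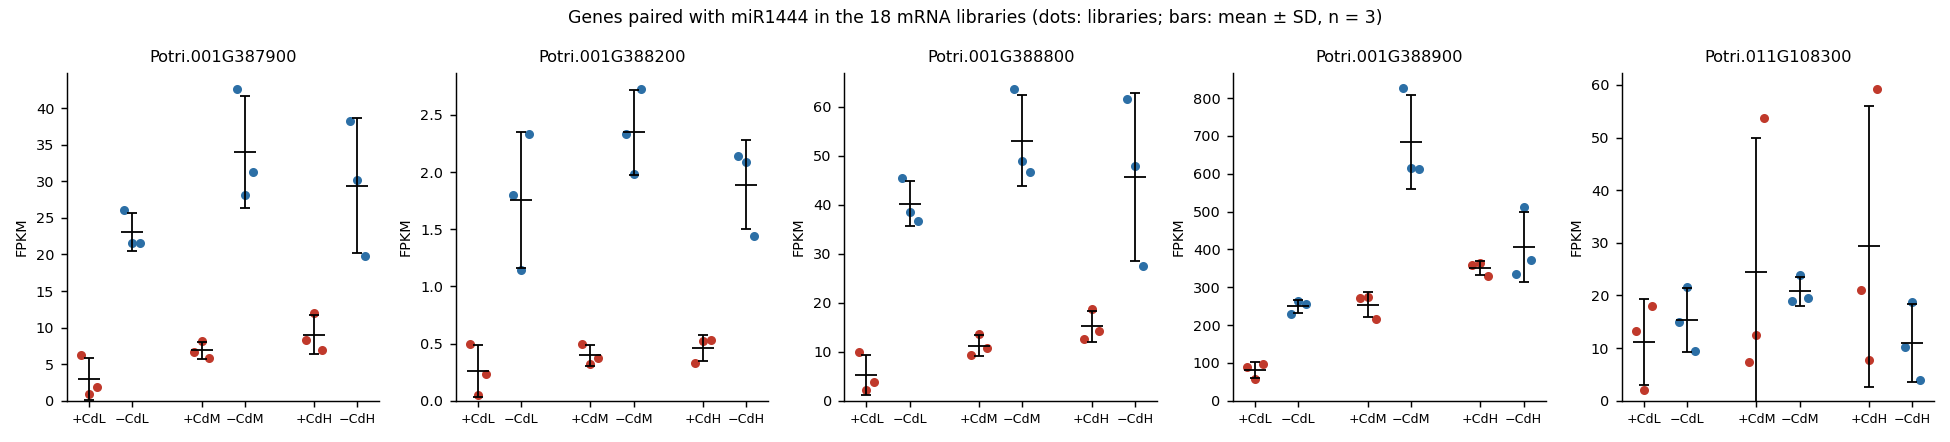
FPKM (linear axis from 0; lower error bars end at 0) of 5 genes paired with miR1444 in each of the 18 mRNA libraries, by group, with Cd in red and without Cd in blue; bars give mean ± SD (n = 3). Potri.001G387900, Potri.001G388200 and Potri.001G388800 are apart at each sulfate supply, Potri.001G388900 overlaps at high sulfate, and Potri.011G108300 overlaps at all 3.

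None of the tested targets on other chromosomes (Potri.008G123300, Potri.011G108300 and Potri.015G087200) was called lower with Cd averaged over sulfate, where 16.2% of loci were. Potri.011G108300 had 13.3, 2.12 and 17.9 FPKM with Cd at low sulfate, against 14.98, 21.6 and 9.53 FPKM without Cd. At middle sulfate it had 7.38, 12.4 and 53.7 FPKM with Cd, against 18.9, 23.9 and 19.5 FPKM without Cd. Under high sulfate it had 21.1, 7.83 and 59.2 FPKM with Cd, against 10.2, 18.8 and 4.02 FPKM without Cd. Libraries +CdM3 and +CdH3 were far above the rest, the groups overlapped at each supply, and the averaged difference was 0.06 ± 0.48 (log2 ± SE; limma, adjusted p = 0.9422).

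Potri.008G123300 averaged 10.3 FPKM with Cd and 11.4 FPKM without Cd, a difference of −0.14 ± 0.05 (limma, adjusted p = 0.05943) that passed with the replicate number as a block (adjusted p = 0.04379) and without +CdL2, +CdM3, −CdM1 or +CdH3 (limma, adjusted p = 0.03065 to 0.04473). It was higher at low than at middle sulfate by 0.19 ± 0.06 (limma, adjusted p = 0.03336), where 12.2% of loci were called higher. Potri.015G087200 averaged 6.27 FPKM with Cd and 5.03 FPKM without Cd and rose by 0.27 ± 0.07 (limma, adjusted p = 0.01349). By supply the changes were 0.02, 0.44 and 0.34 at low, middle and high sulfate (limma, adjusted p = 0.9702, 0.0226 and 0.08644). Only middle sulfate was called, where 7.71% of loci were called higher. Potri.011G047300 and Potri.011G108200 stayed below the limit, at means of 0.308 and 0.913 FPKM with Cd and 0.592 and 0.655 FPKM without Cd.

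**Figure D4:**
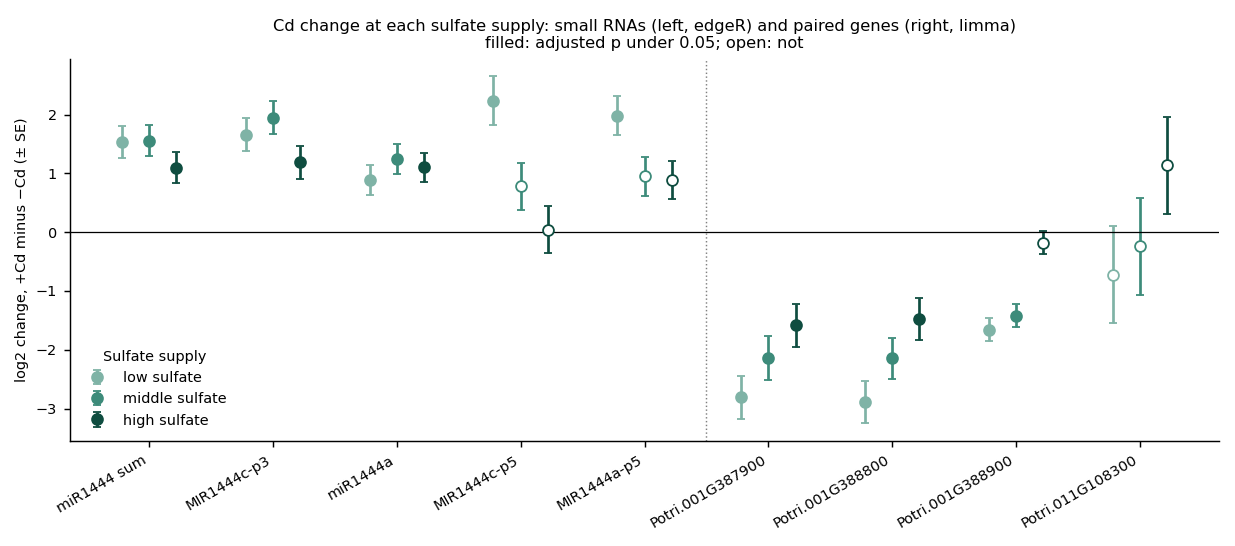
Log2 change with Cd, +Cd minus −Cd with SE, at low, middle and high sulfate for the miR1444 sum and 4 of its sequences (left of the dotted line, edgeR on reads) and for 4 paired genes (right, limma on log2(FPKM + 1)); filled points passed an adjusted p under 0.05. The sum lies at 1.53, 1.56 and 1.10, and Potri.001G388900 at −1.66, −1.42 and −0.18.

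Cut ends were set beside transcript levels. For Potri.001G388900 the authors' scaled degradome signal (TPB) was 662697 in the +Cd pool and 543284 in the −Cd pool, while the mean over 9 libraries was 229 FPKM with Cd and 447 FPKM without Cd. The signal per FPKM was thus 2898 in +Cd and 1216 in −Cd samples, a ratio of 2.38. The 7 genes with shared reads had 9357 TPB in the +Cd pool and 12011 in the −Cd pool at their MIR1444c-p3 sites. Set against 18.1 FPKM with Cd and 80.6 FPKM without Cd, their ratio of signal per FPKM was 3.47. Potri.011G108200 and Potri.011G108300, which were not lower with Cd on average, had 1028 TPB (+Cd pool) and 269 TPB (−Cd pool) at their MIR1444c-p3 site. Against 22.6 FPKM with Cd and 16.4 FPKM without Cd, their ratio of signal per FPKM was 2.77, resting on 10 and 3 reads. That ratio leaves out their miR1444a site, which went the other way. There each gene had 51.4 TPB in the +Cd pool and 134 in the −Cd pool, from 1 and 3 reads. With 1 pool at each Cd level these ratios have no replicate check, and none was taken for sites of other small RNAs. The pools also join the 3 sulfate supplies.

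Among the copper families listed for comparison, miR1444 had the smallest estimated change with Cd averaged over sulfate. At low sulfate alone the change of miR397 (1.48) was smaller than that of miR1444 (1.53), and the differences between families were not tested. miR408 rose with Cd by 2.52 ± 0.16, miR398 by 2.34 ± 0.20 and miR397 by 1.90 ± 0.22 averaged over sulfate (log2 ± SE; edgeR, adjusted p = 1.116e-10, 4.76e-09 and 5.11e-07). Each was also called at each sulfate supply, where 17.6%, 11.8% and 8.82% of families were called higher at low, middle and high sulfate. No sequence was listed for miR857. miR408 averaged 15464, 15802 and 15364 CPM with Cd at low, middle and high sulfate, against 2704, 2398 and 3095 CPM without Cd. miR398 averaged 4310, 7593 and 7445 CPM with Cd, against 1333, 1057 and 1336 CPM without Cd. miR397 averaged 842, 1087 and 1014 CPM with Cd, against 301.2, 209 and 284 CPM without Cd. Its groups overlapped at low sulfate, with +CdL1 (294.8 CPM) below −CdL1 (391.3 CPM).

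Those 3 families were also the ones whose pattern was most like that of miR1444. Over the 18 small RNA libraries, which share the Cd difference and their scaling, the correlation of log2 CPM was 0.948 for miR408, 0.941 for miR397 and 0.938 for miR398. Next came miR7841 (0.807) and miR473 (0.796).

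None of the tested genes paired with the other copper families was called with Cd averaged over sulfate, where 28.1% of loci were called. Category 0 or 1 sites paired 7 genes with miR397 and 5 with miR408, and none with miR398 or miR857. Of these 12 genes 8 could be tested for a change with Cd (limma, adjusted p = 0.1469 to 0.8238, with 0 of them under an unadjusted p of 0.05). Their median log2 change was −0.0073, against −0.0016 over all loci. The miR397 genes with most degradome reads were Potri.006G097100, with 33 in the +Cd pool and 2 in the −Cd pool, and Potri.016G112000 and Potri.016G112100, each with 28 in the +Cd pool and 1 in the −Cd pool. Their transcript changes were 0.06 ± 0.09 for Potri.006G097100 and −0.12 ± 0.11 for Potri.016G112000 (log2 ± SE), and Potri.016G112100 was too low to test. For miR408 the leading genes were Potri.002G073800 and Potri.002G074000, each with 4 reads in the +Cd pool and 9 in the −Cd pool and too low to test, and Potri.018G037000, with 6 reads in the +Cd pool and 4 in the −Cd pool and a change of −0.11 ± 0.09. Of the 8 genes, the one with the largest estimated change was Potri.001G209300, named here after its values were seen, with 4 reads at its miR408 site in the +Cd pool and 0 in the −Cd pool and a change of −0.61 ± 0.30 (limma, adjusted p = 0.1469). Between low and middle sulfate, averaged over Cd, 3 miR397 genes of the 8 were called lower, a contrast in which 14.6% of loci were. These were Potri.016G112000 (−0.51 ± 0.14), Potri.011G120300 (−0.48 ± 0.15) and Potri.006G097000 (−0.38 ± 0.13; log2 ± SE; limma, adjusted p = 0.01384, 0.03017 and 0.04777). Whether the changes of these genes differ from those of the miR1444 targets was not tested.

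Over the 18 mRNA libraries, the loci most like Potri.001G388900 on the log2(FPKM + 1) scale were Potri.008G160200 (correlation 0.905), Potri.005G161100 (0.904), Potri.008G026400 (0.893), Potri.016G031500 (0.89) and Potri.013G133200 (0.881). The most opposite were Potri.003G082800 (−0.938), Potri.010G003200 (−0.919), Potri.003G177600 (−0.918), Potri.015G123800 (−0.898) and Potri.016G012900 (−0.897). None of these lies in the chromosome 1 stretch. Within it, Potri.001G388900 correlated at 0.817 with Potri.001G387900, 0.803 with Potri.001G388800 and 0.683 with Potri.001G388200. Outside it the values were 0.342 with Potri.011G108300, −0.351 with Potri.008G123300 and −0.339 with Potri.015G087200. All of these libraries share the Cd and sulfate differences, which enter the correlations.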

How the data were processed

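The members and lists were chosen with earlier results of these data known. Small RNA values were expected counts per mature sequence and hairpin, deposited by the authors beside a normalized signal; the counts were summed over hairpins, then by sequence or family, and rounded. They were tested with edgeR 4.0.16 in R 4.3.3 (TMM, filterByExpr, quasi-likelihood F test, 6 group means). For mRNA the authors deposited FPKM per locus; log2(FPKM + 1) of loci with a mean of at least 1 was fitted with limma 3.58.1 (trend, robust). TopHat2 2.1.1 is named in the submitters' processing notes, and no source used here states the build, annotation or FPKM program. Degradome tables deposited by the authors hold a read count per site, an estimated count divided over transcripts, a scaled signal (TPB, not spelled out per the file headers), an alignment score and a category.

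Calls used a Benjamini-Hochberg adjusted p under 0.05 over all features of a contrast, two-sided. The printed interaction value is the Cd change at low minus that at middle sulfate. CPM of the family sum and of single sequences were scaled separately. All members were named, with every locus of the chromosome 1 stretch, 3 degradome genes per copper family, and the families or loci with the 5 most similar or opposite patterns. Both fits were tested on simulated data. Alternatives were DESeq2 1.42.0, other scalings, filters and pseudocounts, the authors' signal, the largest hairpin, a replicate block and leaving out each library. Within each assay, same-numbered libraries showed no common deviation, and whether the numbers pair samples is not known.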

Additional observations from a re-analysis of the deposited data

Results flagged for a closer look

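Potri.001G388900 was singled out because its Cd change differed between sulfate supplies (limma interaction over the 3 supplies, adjusted p = 0.01303). The +Cd over −Cd ratio of group means was 0.322, 0.371 and 0.867 for low, middle and high sulfate (n = 3 each). The adjusted p stayed between 0.009438 and 0.03651 over 23 alternatives. Sulfate groups of 3 libraries were not tested for single outlying values.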

How the results depend on the processing

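The miR1444 changes with Cd averaged over sulfate, at low and at middle sulfate kept their direction and call under all 25 alternatives (0.78 to 1.504, 0.72 to 1.79 and 1.26 to 1.79, each lowest under quantile normalization). At high sulfate the change was 0.37 under quantile normalization and 0.86 to 1.24 with libraries left out in turn; the cause was not tested. The uncalled low minus middle change was −0.015 on the authors' signal, and the uncalled interaction value was −0.54 under quantile normalization, −0.33 with RLE and with DESeq2, and −0.32 to 0.16 with libraries left out. The median family change with Cd was 0.02 with TMM, −0.11 with RLE and −0.13 with quantile scaling, so rises stand relative to that. Counting only categories 0 and 1 left 11 genes with site reads in the +Cd pool and 7 in the −Cd pool, against 12 each. Several of these are chromosome 1 genes that list the same reads, so cutting of each single gene was not shown. Divided over transcripts, Potri.001G388800 had 26.1 reads in the +Cd pool and 38.4 in the −Cd pool. Uncalled values that changed sign were MIR1444c-p5 at high sulfate (−0.11 under quantile normalization, −0.49 to 0.41 with libraries left out), Potri.011G108300 averaged over sulfate (−0.21 to 0.32) and Potri.001G388900 between high and middle sulfate (0.017 under quantile normalization). The low minus middle part of the called Potri.001G388900 interaction was −0.46 under quantile normalization and −0.38 to 0.0010 with libraries left out. Same-numbered libraries of an assay correlated at −0.288 to 0.268 (mRNA) and −0.356 to 0.429 (small RNA) in their deviations from group means. No common shift was seen, which does not show that the numbers are unrelated to samples. With the replicate block the miR1444 change with Cd was 1.39 and Potri.008G123300 was called; no other call changed among the results refitted with it, which did not include the comparison copper families, their paired genes or the sulfate difference of Potri.008G123300. The ratio of MIR1444c-p3 to miR1444a stayed at 0.47 to 0.58 with each library left out (exact permutation p = 0.00075 to 0.006), an alternative chosen after seeing the data. FPKM carry no depth, so precision below 1 FPKM is unknown.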
